A study of Homo sapiens with 12 samples.

Results

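The CHOP and ATF4 stress transcription arm was taken as 9 genes: ATF4, ATF3, DDIT3, CEBPB, CEBPG, TRIB3, CHAC1, PPP1R15A and PPP1R15B. They are 9 of the 19775 genes that had a probe set with a single gene symbol, and 14 of the 54675 probe sets carried exactly 1 of these symbols. Each gene was read from its probe set with the highest mean over the 12 arrays, and its other probe sets served as a check. All 9 genes were at log2 4 or above on all 12 arrays, so none was lost to the filter that left 13130 genes tested.

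The samples were Sk-hep1 cells, an established human cell line from liver ascites that the labels class as an endothelial adenocarcinoma. The 4 groups of 3 arrays each were high-fat medium (HFM) for 12 hours, growth medium (GM) for 12 hours, HFM for 24 hours and GM for 24 hours. GM was based on DMEM and HFM on DMEM/F12, and all cells had been grown before in DMEM with fetal bovine serum, penicillin, streptomycin and glutamine. No source used here gives the fat in HFM, and the basal medium and the fat cannot be told apart. The labels do not say whether replicates were separate cultures, and the p-values then measure only the spread between these arrays, which may be technical. The arrays measured RNA of whole cultures, in which fewer cells of a kind and less RNA per cell cannot be told apart.

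The integrated stress response begins when a sensor kinase phosphorylates the translation initiation factor eIF2. Most translation then slows, while the mRNA of ATF4 is translated more through short upstream reading frames, so the ATF4 mRNA level is not a measure of ATF4 protein. ATF4 pairs with C/EBP proteins on composite DNA sites and raises DDIT3, which encodes CHOP, as well as ATF3, TRIB3, CHAC1 and PPP1R15A. The endoplasmic reticulum kinase PERK is 1 of the sensors, and saturated fatty acids are a known trigger of it in liver cells.

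Sequences upstream of the transcription starts are shown for the genes that carried a motif tied to this response. Whether a motif goes with the direction of change of a gene was not tested. RefSeq promoter windows of 250 bases before and 50 bases after each start (GRCh38.p14) were found for 9 of the 9 genes, in 16 windows. The ATF4 composite site core, TGATGNAA, was searched on both strands and was present in 3.62% of 35116 windows of all genes. It was found in a window of ATF3, CEBPG, CHAC1 and PPP1R15B, which is 4 of the 9 genes, against 4.46% of 27305 genes in all. The match of CEBPG is upstream of a start that lies inside the gene span given below, and the window at its outer start had none. The cyclic AMP response element, TGACGTCA, which reads the same on both strands, was in 1.85% of windows and in PPP1R15A. The endoplasmic reticulum stress element without its last base, CCAAT and CCAC with any 9 bases between on either strand, was in 0.316% of windows and in DDIT3. The motifs share no overlapping match in the printed sequences. A match is a description of letters and not a bound site, and sites outside the windows were not searched. Capitals mark the match, and each sequence runs 5′ to 3′ on the strand of its gene. DDIT3 is shown over the 250 bases before a start, at chr12:57520515-57520764, minus strand, with the match at position -100 from it and -97 from another start. PPP1R15A is shown over the same length at chr19:48872171-48872420, plus strand, with the match at position -58. The other 4 are shown over a shorter stretch around the match.
DDIT3: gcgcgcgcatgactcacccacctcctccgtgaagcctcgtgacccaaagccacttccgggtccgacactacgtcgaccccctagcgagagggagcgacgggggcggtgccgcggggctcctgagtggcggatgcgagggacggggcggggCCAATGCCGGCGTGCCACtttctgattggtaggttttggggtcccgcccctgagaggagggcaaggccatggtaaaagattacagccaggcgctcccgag
PPP1R15A: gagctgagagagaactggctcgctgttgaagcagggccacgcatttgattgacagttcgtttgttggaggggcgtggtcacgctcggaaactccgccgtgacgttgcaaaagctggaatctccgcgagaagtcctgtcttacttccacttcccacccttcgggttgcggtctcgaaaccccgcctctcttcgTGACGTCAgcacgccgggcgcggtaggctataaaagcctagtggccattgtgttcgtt
ATF3, chr1:212565190-212565249, plus strand: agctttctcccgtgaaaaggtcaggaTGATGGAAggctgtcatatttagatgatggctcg
CEBPG, chr19:33374045-33374104, plus strand: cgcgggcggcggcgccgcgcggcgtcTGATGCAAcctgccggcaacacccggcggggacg
CHAC1, chr15:40953236-40953295, plus strand, match on the reverse strand: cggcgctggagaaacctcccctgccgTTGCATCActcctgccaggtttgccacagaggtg
PPP1R15B, chr1:204412011-204412067, minus strand: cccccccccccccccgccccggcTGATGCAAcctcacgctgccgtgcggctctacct

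Replicate arrays of a group correlated at 0.991 to 0.999 over the tested genes. HFM 12 hours replicate 1 stood apart from the other 2 arrays of its group, with r of 0.992 and 0.991 against them, while these 2 correlated at 0.999. Its BioB and BioC hybridisation controls, spiked in equal amounts, were at log2 9.10, just below the GM 12 hours arrays (9.11 to 9.15), while the other 8 arrays were at 8.64 to 8.90. The 3′ minus 5′ difference of ACTB, which grows as RNA is degraded or incompletely labelled, was 1.58 ± 0.06 in HFM and 1.07 ± 0.05 in GM at 24 hours (SD, n = 3 arrays each) (two-sided exact permutation test, p = 0.1, and no smaller p is possible with 3 arrays a group). At 12 hours it was 0.84 ± 0.13 in HFM and 0.89 ± 0.03 in GM. Of 14 endothelial markers 6 passed the filter. CDH5, VWF and KDR were among those below it, and PECAM1 was at 3.79 to 4.56 on the single arrays. ENG (7.14 to 7.74) and ROBO4 (5.99 to 7.48) were above it on all arrays. ICAM2 (3.87 to 4.99), NOS3 (3.69 to 5.28) and ESAM (3.79 to 4.30) passed with single arrays below log2 4. The hepatocyte marker ALB was below the filter too, but 5 of 11 hepatocyte markers passed, TTR at 5.15 to 5.74 among them. Of 9 epithelial markers 6 passed, with KRT18 high on all arrays (13.28 to 13.72) and EPCAM and CDH1 below the filter. Of 10 mesenchymal markers 9 passed, with VIM high on all arrays (13.53 to 13.64), and of 8 leukocyte markers 3 passed. Of the markers of the labelled endothelial cell type, CDH5, VWF, KDR, TEK, TIE1, ERG, EMCN and CLEC14A were thus below the filter used. The other 6 of the 14 passed.

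At 24 hours DDIT3, PPP1R15A and ATF3 were more than 4-fold and CEBPB 1.92-fold higher in HFM than in GM, while CHAC1 was lower. TRIB3 was lower too (log2 change -0.21), a call lost in 10 of 23 alternatives, of which 2 are the same fit. ATF4 was lower by a small amount that turned to 0.02 when arrays were centred on their medians, PPP1R15B was not called, and the 2 probe sets of CEBPG disagreed. Of the 9 genes 8 were called at 24 hours, 5 higher and 3 lower, where 58.1% of all 13130 genes were called, 20.6% higher and 37.5% lower. The 5 include CEBPG by its main probe set, and with the mean of the probe sets of each gene 4 were higher and 3 lower, CEBPG among the lower. The arrays of the media did not overlap for 8 of the 9 at 24 hours, against 68.7% of all genes, and for 6 of the 9 at 12 hours, against 63.6%. A rise of at least 2-fold was seen in 3 of the 9, against 2.28% of all genes tested. The median log2 change was 0.26 over the 9 genes and -0.08 over all genes. At 12 hours 7 of the 9 were called, 3 higher and 4 lower, against 61.9% of all genes (28.9% higher and 33.0% lower). The medians were then -0.05 over the 9 genes and -0.07 over all genes. Calls were at a Benjamini-Hochberg adjusted p under 0.05 from limma over all genes tested, with standard errors beside the log2 changes. Both times used separate GM arrays.

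**Figure D1:**
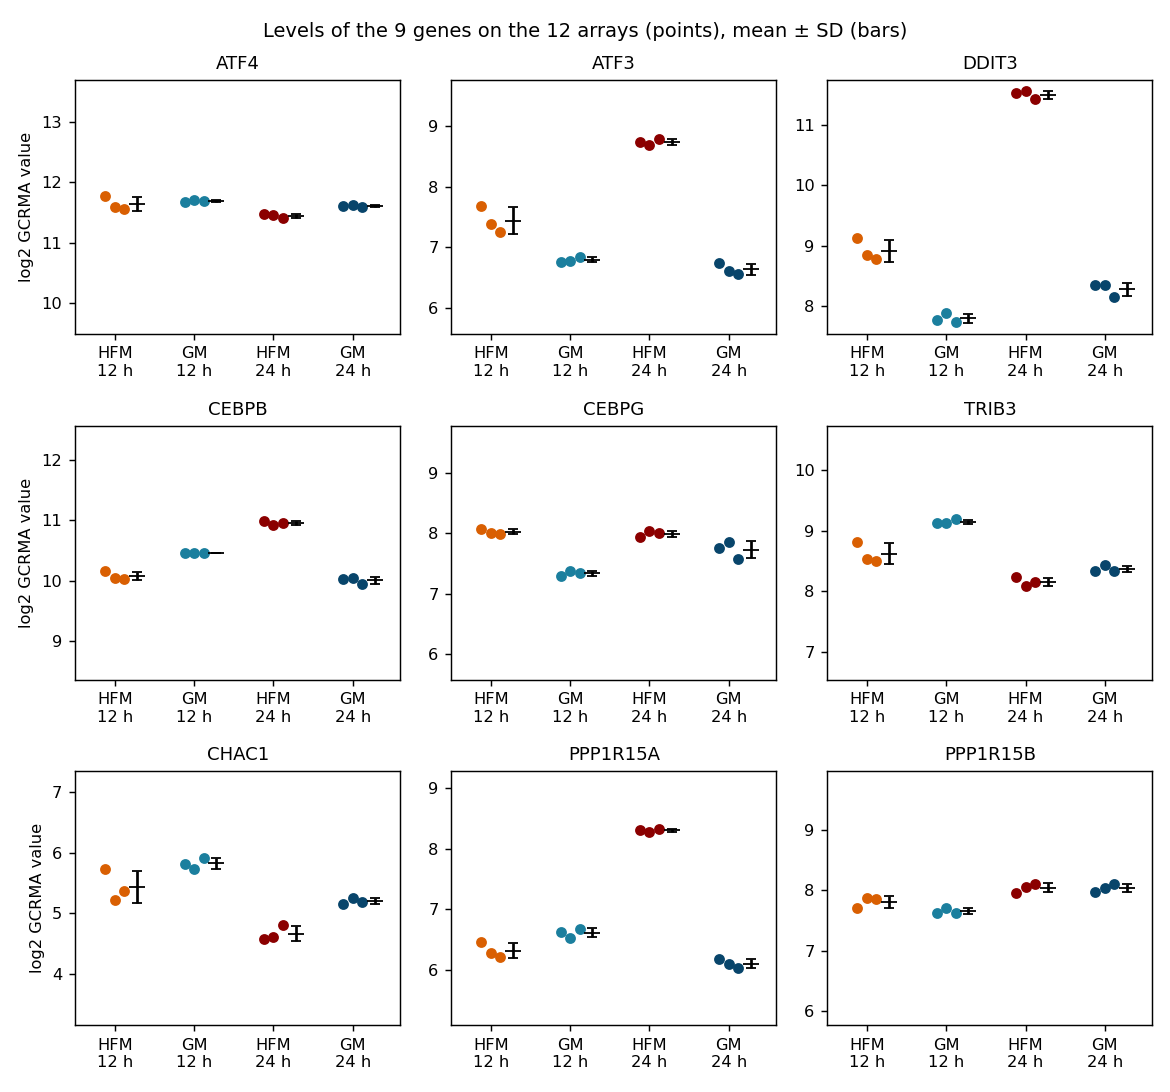
Levels of the 9 genes as log2 GCRMA values on the 12 arrays, 1 panel per gene with the same span on each y axis. Points are arrays and bars the mean ± SD of 3 arrays; DDIT3 reaches 11.42 to 11.55 in HFM at 24 hours, against 8.16 to 8.34 in GM, while ATF4 lies between 11.41 and 11.78 on all arrays.

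The first group of members are the transcription factors. DDIT3 (chr12:57516588-57520517, minus strand) encodes CHOP, a C/EBP family protein that promotes death of cells under lasting stress. At 12 hours it was at 9.12, 8.85 and 8.78 in HFM, against 7.77, 7.88 and 7.73 in GM. At 24 hours it was at 11.51, 11.55 and 11.42 in HFM, against 8.34, 8.34 and 8.16 in GM. Every HFM array was above every GM array of its time, and the HFM arrays at 24 hours were the highest of the 12. The log2 change was 1.12 ± 0.09 at 12 hours (2.18-fold, adjusted p = 1.12e-06) and 3.22 ± 0.09 at 24 hours (9.29-fold, adjusted p = 1.41e-10). By size the change at 24 hours ranked 9 among 13130 genes. The effect of HFM was larger at 24 than at 12 hours by 2.09 ± 0.13 (adjusted p = 1.39e-07), a difference called for 52.8% of all genes. DDIT3 rose with time in HFM by 2.58 ± 0.09 (adjusted p = 1.20e-09) and in GM by 0.48 ± 0.09 (adjusted p = 0.000459). The order of its levels was HFM 24 hours, HFM 12 hours, GM 24 hours and GM 12 hours, and all 3 neighbouring pairs differed.

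ATF3 (chr1:212565407-212620777) encodes a stress-induced factor that mostly represses its targets. The 12-hour values were 7.68, 7.38 and 7.26 in HFM, against 6.76, 6.78 and 6.84 in GM. The 24-hour values were 8.73, 8.70 and 8.79 in HFM, against 6.74, 6.61 and 6.55 in GM. The groups did not overlap at either time, and the GM arrays were low at both. HFM minus GM, the log2 change was 0.65 ± 0.09 at 12 hours (adjusted p = 9.91e-05) and 2.11 ± 0.09 at 24 hours (4.30-fold, adjusted p = 3.81e-09), larger at 24 hours by 1.46 ± 0.13 (adjusted p = 2.87e-06). With the mean of its probe sets the change was 0.17 at 12 hours and 1.21 at 24 hours, both called. In GM the change with time, -0.16 ± 0.09, missed the threshold (adjusted p = 0.144), so the 2 GM groups at the low end of the order were not told apart.

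ATF4 (chr22:39520559-39522686) stayed within 0.24 between its highest and lowest group mean. It was at 11.78, 11.60 and 11.56 in HFM and 11.67, 11.71 and 11.70 in GM at 12 hours. After 24 hours the values were 11.47, 11.46 and 11.41 in HFM and 11.61, 11.62 and 11.59 in GM. The arrays overlapped at 12 hours, and at 24 hours all 3 HFM arrays lay just below the GM arrays. The log2 change at 12 hours was -0.05 ± 0.06 (adjusted p = 0.504). That at 24 hours was -0.16 ± 0.06 (adjusted p = 0.0363), a call that was lost without the filter, when any 24-hour array was left out and when GM 12 hours replicate 2 or 3 was left out. Leaving out HFM 12 hours replicate 1 made the change at 12 hours a call, at -0.11 (adjusted p = 0.0171). A term for the class of the BioB and BioC controls (2 classes of arrays, chosen after seeing the data) turned that change to 0.089. The higher class held the GM 12 hours arrays and HFM 12 hours replicate 1. The term was therefore estimated only from that array against the other arrays of its group. With the term, a change at 12 hours sets that array alone against GM.

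CEBPB (chr20:50190583-50192690) encodes a C/EBP factor that can pair with ATF4 and CHOP, and it changed direction with time. At 12 hours it was at 10.15, 10.04 and 10.03 in HFM, against 10.46 on each of the 3 GM arrays. At 24 hours it was at 10.98, 10.92 and 10.95 in HFM, against 10.02, 10.05 and 9.95 in GM. HFM arrays were thus all lower at 12 hours and all higher at 24 hours. The log2 change was -0.38 ± 0.05 at 12 hours (adjusted p = 5.79e-05) and 0.94 ± 0.05 at 24 hours (adjusted p = 2.08e-08), and the difference between them was 1.33 ± 0.07 (adjusted p = 6.72e-08). Levels in HFM rose by 0.88 ± 0.05 between 12 and 24 hours (adjusted p = 4.34e-08), and levels in GM fell by 0.45 ± 0.05 (adjusted p = 1.07e-05).

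CEBPG (chr19:33373709-33382686) encodes the C/EBP protein that pairs with ATF4 on amino acid response sites. Its main probe set was at 8.07, 8.00 and 8.00 in HFM and 7.29, 7.37 and 7.35 in GM at 12 hours. The 24-hour values were 7.94, 8.03 and 8.01 in HFM and 7.76, 7.86 and 7.57 in GM. The HFM arrays were above the GM arrays at both times, by 0.69 ± 0.07 (adjusted p = 6.08e-06) and then by 0.26 ± 0.07 (adjusted p = 0.00561), a difference between times of -0.42 ± 0.10 (adjusted p = 0.00300). In this probe set the 2 HFM groups were not told apart (-0.03 ± 0.07, adjusted p = 0.700), and the GM level rose with time by 0.39 ± 0.07 (adjusted p = 0.000299). A second probe set of CEBPG disagreed: it was at 6.51, 6.60 and 6.47 in HFM, against 7.62, 7.58 and 7.50 in GM, at 24 hours. That is a log2 change of -1.04 ± 0.08 (adjusted p = 4.06e-07 over all probe sets), and with the mean of both probe sets the change of CEBPG was -0.39. No direction is therefore given for CEBPG at 24 hours, and at 12 hours the second probe set showed -0.01 ± 0.08 (adjusted p = 0.927). Between 12 and 24 hours in HFM the second probe set fell by 0.94 ± 0.08 (adjusted p = 1.09e-06), and the mean of both gave -0.49 (adjusted p = 1.91e-05).

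**Figure D2:**
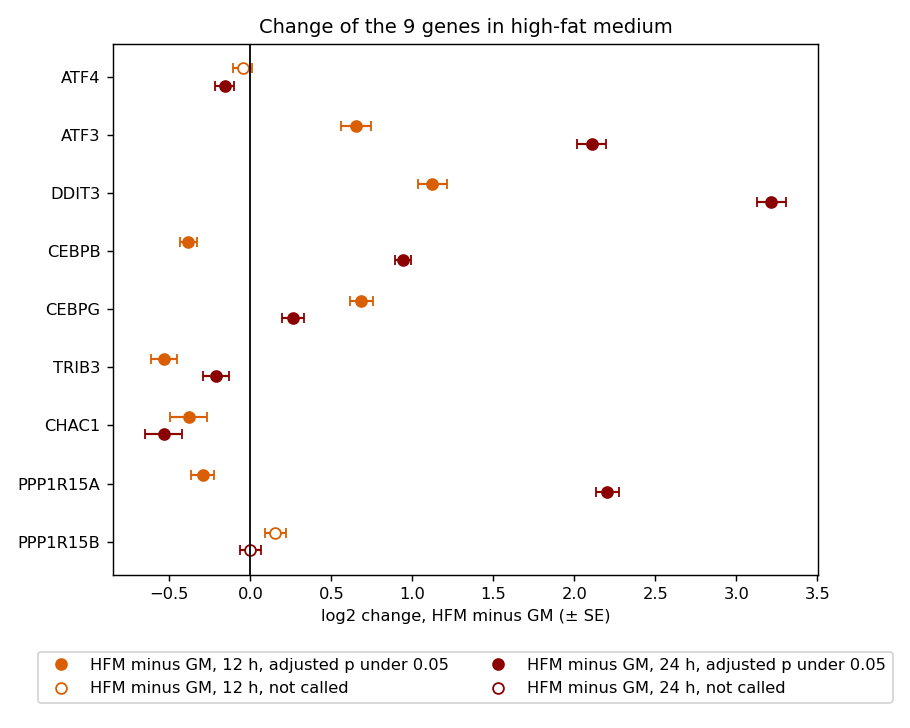
Log2 change of each of the 9 genes, HFM minus GM, at 12 and at 24 hours, as points with standard errors. Filled points have an adjusted p under 0.05; DDIT3, PPP1R15A and ATF3 lie above 2 at 24 hours, and CEBPB and PPP1R15A are below 0 at 12 hours and above it at 24 hours.

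The next members act downstream as feedback or effector genes. TRIB3 (chr20:380760-397559), a pseudokinase induced by ATF4 and CHOP that restrains both ATF4 and AKT signalling, was lower in HFM. The 12-hour values were 8.82, 8.53 and 8.51 in HFM, against 9.13, 9.13 and 9.19 in GM. After 24 hours the values were 8.23, 8.09 and 8.15 in HFM, against 8.33, 8.43 and 8.34 in GM. No array overlapped between the media at either time. HFM minus GM, the log2 change was -0.53 ± 0.08 at 12 hours (adjusted p = 0.000129) and -0.21 ± 0.08 at 24 hours (adjusted p = 0.0357). The call at 24 hours was lost under centring (-0.03), quantile normalisation (-0.10), without the filter, with the mean of its probe sets (-0.18) and when 1 of 5 of the 24-hour arrays was left out. The difference between times (0.32 ± 0.11, adjusted p = 0.0293) was lost with the mean of its probe sets (0.25), with the BioB and BioC term (0.12) and when 1 of 7 arrays was left out. TRIB3 fell with time in both media, by 0.46 ± 0.08 in HFM (adjusted p = 0.000263) and by 0.78 ± 0.08 in GM (adjusted p = 4.31e-06).

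CHAC1 (chr15:40953471-40956512), which encodes an enzyme that breaks down glutathione and is a known target of ATF4, was also lower in HFM. At 12 hours it was at 5.73, 5.22 and 5.37 in HFM, against 5.81, 5.73 and 5.92 in GM. At 24 hours it was at 4.57, 4.61 and 4.81 in HFM, against 5.16, 5.25 and 5.19 in GM. HFM replicate 1 reached the GM range at 12 hours, and at 24 hours the groups were apart. The log2 change was -0.38 ± 0.11 at 12 hours (adjusted p = 0.0125) and -0.54 ± 0.11 at 24 hours (adjusted p = 0.00148), with no called difference between times (-0.16 ± 0.16, adjusted p = 0.436). Without HFM 12 hours replicate 2 the call at 12 hours was lost (-0.27, adjusted p = 0.0535), as it was with the BioB and BioC term (-0.087, adjusted p = 0.477). CHAC1 fell with time in HFM by 0.78 ± 0.11 (adjusted p = 8.03e-05) and in GM by 0.62 ± 0.11 (adjusted p = 0.000433), a fall in GM that the same term left at -0.18 (adjusted p = 0.255).

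The last pair encodes the subunits that direct protein phosphatase 1 to eIF2 and so end the response. PPP1R15A (chr19:48872421-48876058), or GADD34, is the inducible subunit. The 12-hour values were 6.46, 6.27 and 6.21 in HFM, against 6.62, 6.53 and 6.68 in GM. The 24-hour values were 8.31, 8.27 and 8.33 in HFM, against 6.18, 6.09 and 6.03 in GM. HFM arrays were slightly below GM arrays at 12 hours and far above them at 24 hours. HFM minus GM, the log2 change was -0.29 ± 0.07 at 12 hours (adjusted p = 0.00379) and 2.20 ± 0.07 at 24 hours (4.61-fold, adjusted p = 4.53e-10). The difference between times, 2.50 ± 0.10 (adjusted p = 8.98e-09), was the largest of the 9 genes and ranked 28 by size among 13130 genes. The call at 12 hours was lost with the BioB and BioC term (-0.15, adjusted p = 0.102). In HFM it rose with time by 1.99 ± 0.07 (adjusted p = 1.41e-09), and in GM it fell by 0.51 ± 0.07 (adjusted p = 5.47e-05).

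PPP1R15B (chr1:204395826-204411817, minus strand), the constitutive subunit, was at 7.70, 7.87 and 7.85 in HFM and 7.63, 7.71 and 7.62 in GM at 12 hours. After 24 hours the values were 7.96, 8.06 and 8.11 in HFM and 7.97, 8.04 and 8.11 in GM. The media overlapped at both times. The log2 change was 0.15 ± 0.06 at 12 hours (adjusted p = 0.0548) and -0.00 ± 0.06 at 24 hours (adjusted p = 0.991). It rose with time by 0.23 ± 0.06 in HFM (adjusted p = 0.00675) and by 0.39 ± 0.06 in GM (adjusted p = 0.000195), where the BioB and BioC term gave 0.23 (adjusted p = 0.0528). Without HFM 12 hours replicate 1 the change at 12 hours was 0.21 (adjusted p = 0.00782).

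Counted over the members, the effect of HFM differed between 24 and 12 hours in 6 of the 9 genes, 5 with a higher and 1 with a lower value at 24 hours, where 52.8% of all genes differed, 19.4% higher and 33.4% lower. In HFM 8 of the 9 changed between 12 and 24 hours, 5 up and 3 down, where 63.1% of all genes were called, 20.1% up and 43.1% down. In GM 7 of the 9 changed, 3 up and 4 down, where 69.9% of all genes were called, 29.4% up and 40.5% down. No member moved by 2-fold or more with time in GM, where 4.27% of all genes did, and DDIT3, PPP1R15A and ATF3 rose by that much in HFM, where 2.35% of all genes did. The HFM comparison over time shares its arrays with both medium comparisons. In the order of levels HFM at 24 hours was highest for DDIT3, ATF3, PPP1R15A and CEBPB and lowest for ATF4, TRIB3 and CHAC1. PPP1R15B was highest in both 24-hour groups, which were not told apart. The order for CEBPG differed between its 2 probe sets, and HFM at 24 hours was lowest in the second. For DDIT3 all neighbouring pairs differed. They did for PPP1R15A in its main probe set, but its second probe set did not call the 12-hour groups apart (adjusted p = 0.101 over all probe sets). For TRIB3 all neighbouring pairs differed too, but the call between the 24-hour groups was lost in 10 of 23 alternatives. Between the neighbouring groups HFM at 12 hours and GM at 24 hours, the difference missed the threshold for ATF4 (0.04, adjusted p = 0.636), CEBPB (0.07, adjusted p = 0.327) and CHAC1 (0.24, adjusted p = 0.118).

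**Figure D3:**
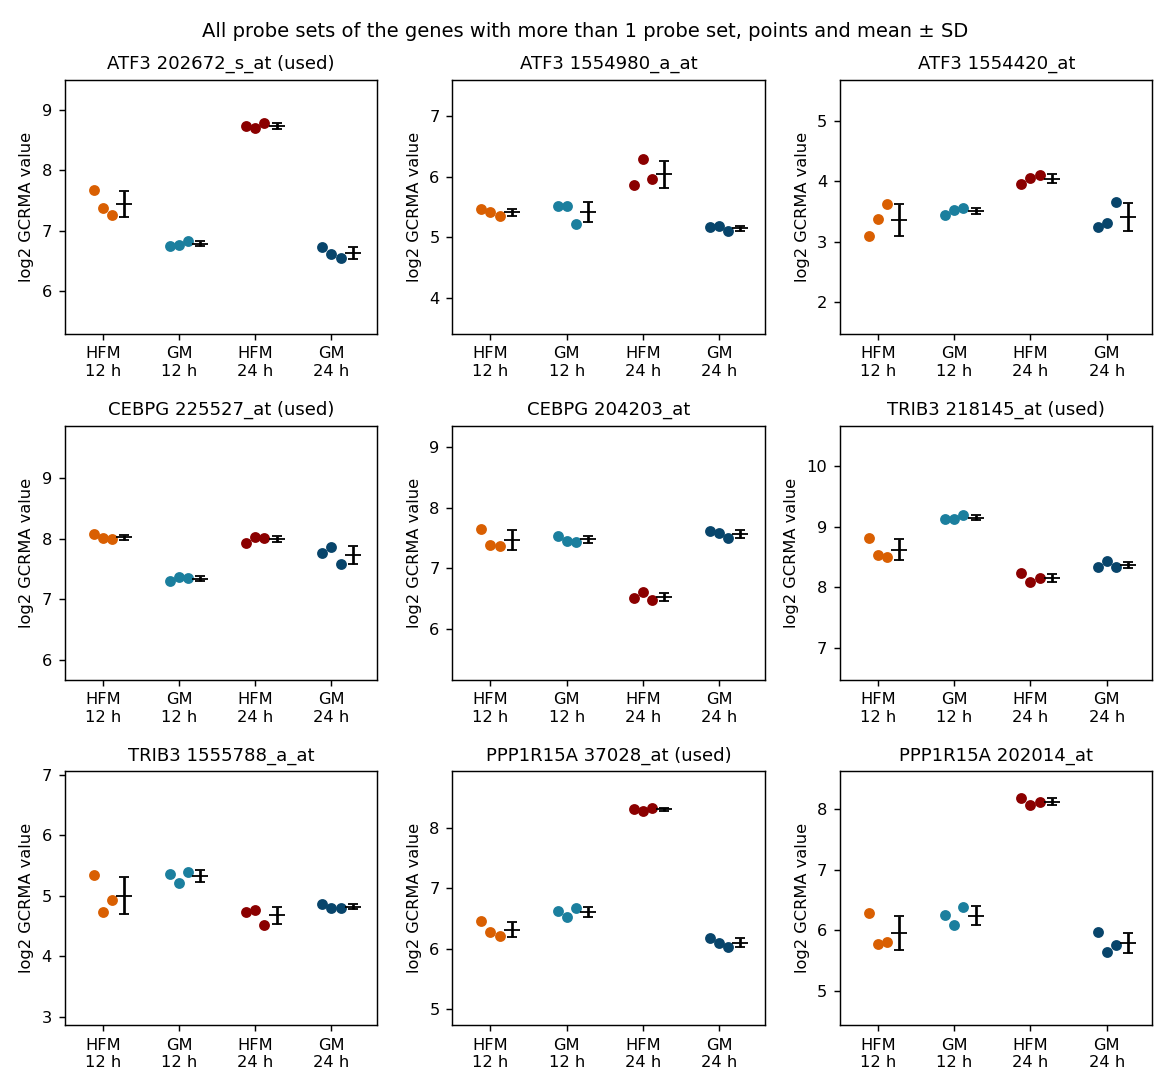
Log2 GCRMA values of all 9 probe sets of the 4 genes with more than 1 probe set, as points per array and the mean ± SD of 3 arrays. Both probe sets of PPP1R15A rise in HFM at 24 hours, while the 2 probe sets of CEBPG go opposite ways there.

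The other probe sets checked 3 further genes. The second probe set of PPP1R15A gave 2.33 ± 0.13 at 24 hours, against 2.20 ± 0.08 for the first in the fit over all probe sets. At 12 hours the second gave -0.29 ± 0.13 (adjusted p = 0.101), not called and with arrays of the media overlapping. The first gave -0.29 ± 0.08 there (adjusted p = 0.0101), so the call of PPP1R15A at 12 hours rests on its main probe set. The 2 further probe sets of ATF3 rose as well at 24 hours, by 0.89 ± 0.11 and 0.64 ± 0.13 (adjusted p = 2.07e-05 and 0.00149), the second of them at a mean of 4.04 in HFM and 3.40 in GM. At 12 hours they gave -0.00 ± 0.11 and -0.15 ± 0.13, with neither called, so the rise of ATF3 at 12 hours rests on 1 of 3 probe sets. The second probe set of TRIB3 gave -0.33 ± 0.13 at 12 hours and -0.15 ± 0.13 at 24 hours, neither called (adjusted p = 0.0620 and 0.451). ATF4, DDIT3, CEBPB, CHAC1 and PPP1R15B had 1 probe set each.

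Some changes depended on how arrays were scaled. Setting the median of the tested genes to 0 on every array (centring) moved the median change of all genes at 24 hours by 0.18, to 0.10, and turned the calls over all genes to 4852 higher and 3434 lower, where the deposited scale gave 2700 higher and 4923 lower and a repeated quantile normalisation 3909 and 4056. Under centring the changes at 24 hours were 3.39 for DDIT3, 2.38 for PPP1R15A, 2.28 for ATF3 and 1.12 for CEBPB, all still called, and -0.36 for CHAC1, still called. For the difference between times the split over all genes was 5068 higher and 3134 lower under centring, 3759 and 3618 under quantile normalisation, and 2551 and 4380 as deposited. For 24 against 12 hours in HFM it was 5133 and 3790, 4047 and 4395, and 2637 and 5653 in that order. The 3′ minus 5′ differences of ACTB and GAPDH moved with the same groups at 24 hours, GAPDH being at 0.27 ± 0.03 in HFM and 0.16 ± 0.02 in GM, and their part in these changes was not tested.

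Around the 9 genes, 20 of 23 targets of ATF6 and XBP1 and 15 of 24 stress targets of ATF4 and CHOP were called higher in HFM at 24 hours and none of either list lower, and amino acid targets of ATF4 went both ways. The lists as such were not tested, and over all genes 20.6% were called higher and 37.5% lower at 24 hours, and 28.9% higher and 33.0% lower at 12 hours. Of the stress targets 62.5% rose at 24 hours, with a median log2 change of 0.42, and 9 were not called. Among them GDF15, a secreted stress cytokine, rose by 1.84 ± 0.06, STC2, a secreted glycoprotein, by 1.67 ± 0.07 and GADD45B by 1.55 ± 0.08. SESN2, an inhibitor of mTORC1, rose by 0.88 ± 0.10, the death receptor TNFRSF10B by 0.44 ± 0.05 and the oxidase ERO1A by 0.76 ± 0.09. At 12 hours the same list had 7 higher and 6 lower, which became 10 and 3 with the BioB and BioC term, with GDF15 at -0.00 ± 0.06 (adjusted p = 0.991) and TNFRSF10B at -0.13 ± 0.05 (adjusted p = 0.0263).

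Of 27 amino acid targets of ATF4 tested, 5 rose (18.5%) and 7 fell (25.9%) at 24 hours, both shares below those of all genes, with a median of 0.02. At 12 hours 4 rose (14.8%) and 16 fell (59.3%), with a median of -0.26. The balance at 24 hours turned to 15 higher and 5 lower under centring, 9 and 6 under quantile normalisation, 10 and 6 with the mean of probe sets, 10 and 8 with the BioB and BioC term or without HFM 12 hours replicate 1, and 7 and 6 with the replicate block. At 12 hours it was 8 and 11 with the mean of probe sets, 7 and 12 with that term and 7 and 16 without that array. ASNS, asparagine synthetase, was -0.13 ± 0.05 at 12 hours (adjusted p = 0.0416) and 0.49 ± 0.05 at 24 hours (adjusted p = 3.86e-06). The other largest rises at 24 hours were SLC33A1, an acetyl-CoA transporter, at 1.17 ± 0.09, and the cystine transporter SLC7A11 at 0.40 ± 0.07. The largest falls were the neutral amino acid transporters SLC1A4 (-0.81 ± 0.05) and SLC7A5 (-0.74 ± 0.07) and the cystathionine enzyme CBS (-0.52 ± 0.07).

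Of 22 kinases and regulators upstream of ATF4, 7 rose (31.8%) and 9 fell (40.9%) at 24 hours, the share that fell being near that of all genes, and centring gave 8 and 7. At 12 hours 11 rose and 5 fell (22.7%). EIF2AK3, which encodes PERK, rose by 0.45 ± 0.06 at 12 hours (adjusted p = 3.03e-05) and by 0.74 ± 0.06 at 24 hours (adjusted p = 3.16e-07). DNAJC3, which binds and inhibits PERK, rose by 1.10 ± 0.05 at 24 hours and EIF2AK1, the kinase HRI, by 0.51 ± 0.06. EIF2AK4, the amino acid sensor kinase GCN2, was at -0.02 ± 0.10 (adjusted p = 0.871), and its co-activator GCN1 fell by 0.71 ± 0.06. PPP1CA, a catalytic subunit of protein phosphatase 1, was at -0.58 ± 0.06 and EIF2B2 at -0.57 ± 0.09, both called.

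Of 23 genes listed as partner bZIP factors, 12 rose (52.2%) and 9 fell (39.1%) at 24 hours, the share that fell being near that of all genes. Centring and quantile normalisation each gave 12 and 6. The list counts CEBPZ, which is not a bZIP protein, among the rises at 12 hours (0.91 ± 0.04) and the falls at 24 hours (-0.31 ± 0.04). At 12 hours 7 rose (30.4%) and 8 fell (34.8%), both near the shares of all genes, and the BioB and BioC term gave 8 and 7. JUN, which pairs with ATF3, rose by 1.16 ± 0.05 at 24 hours, JUND by 1.03 ± 0.06 and the small MAF protein MAFF by 0.77 ± 0.04. BATF3 (-0.78 ± 0.08), FOSL1 (-0.73 ± 0.08) and JDP2 (-0.44 ± 0.07) fell most. ATF5, another translationally controlled target of the response, was at -0.36 ± 0.13 (adjusted p = 0.0268). MAFF was at -0.77 ± 0.04 at 12 hours (adjusted p = 8.34e-08), so like CEBPB and PPP1R15A it was lower in HFM at 12 hours and higher at 24 hours.

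Of 23 targets of ATF6 and XBP1, the factors of the other arms of the unfolded protein response, 20 rose and 0 fell at 24 hours, with a median of 0.63. DNAJB9, a co-chaperone, rose by 2.39 ± 0.05, HERPUD1, which acts in degradation of misfolded proteins, by 2.28 ± 0.05 and the chaperone HSPA5 by 1.53 ± 0.06. At 12 hours 11 rose and 1 fell, with a median of 0.16. These became 10 and 4 under centring and under quantile normalisation, 11 and 4 with the replicate block, 10 and 2 with the BioB and BioC term, and 12 and 6 without HFM 12 hours replicate 1. HSPA5 was at -0.00 ± 0.06 at 12 hours (adjusted p = 0.989). DNAJC3 stands in this list and in that of upstream regulators.

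**Figure D4:**
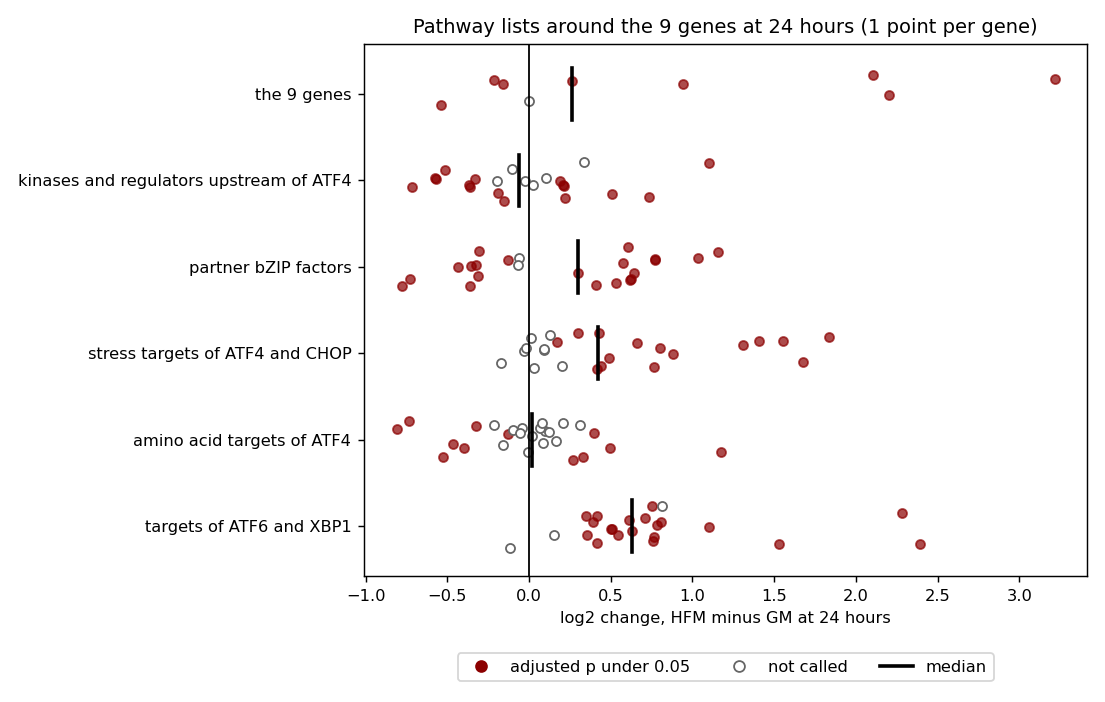
Log2 change, HFM minus GM at 24 hours, of the 9 genes and of the tested genes of 5 pathway lists, 1 point per gene, filled where the adjusted p was under 0.05, with a bar at the median. Medians run from -0.06 for the upstream regulators to 0.63 for the targets of ATF6 and XBP1; vertical scatter within a list has no meaning.

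The genes most like 4 members over the 12 arrays were listed among 3028 tested genes whose group means spanned at least 1 log2 unit. Arrays of 1 group share their medium and time, so the 12 points are not independent. For DDIT3 they were BCL6 (r = 0.998), SPOCK1 (0.997) and TXNIP (0.996). BCL6 was at 8.95 in HFM and 7.99 in GM at 12 hours, and at 10.74 in HFM and 8.44 in GM at 24 hours. For ATF3 they were OSMR (0.998), RABGEF1 (0.995) and MEX3B (0.992), and for PPP1R15A BEX2, DUSP1 and RGS3 (0.993, 0.993 and 0.992). DUSP1 was at 10.26 in HFM and 10.49 in GM at 12 hours, and at 11.34 in HFM and 10.25 in GM at 24 hours. For CHAC1 they were PHRF1 (0.989), GTF2F1 (0.988) and SUFU (0.988), all lowest in HFM at 24 hours.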

How the data were processed

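Affymetrix arrays of 54675 probe sets were hybridised with biotin-labelled cRNA from total RNA of Sk-hep1 cells, 12 arrays in 4 groups of 3. The deposited values are on the log2 scale, and the submitters' processing notes name GCRMA as the authors' tool. That method corrects background, normalises between arrays and summarises each probe set; no source used here gives its version or a filter. GCRMA normalisation assumes that most genes keep their level, so a shift shared by many genes would be partly removed.

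Probe sets with 1 gene symbol in the platform annotation (41097) were used, 1801 had several symbols and 11777 none. For each of 19775 genes the brightest probe set by mean was kept, and the 13130 genes that reached log2 4 on 3 or more arrays were tested. The functions lmFit and eBayes of limma 3.58.1 (R 4.3.3) fitted 4 group means to all 12 arrays, with Benjamini-Hochberg adjustment over all genes tested and calls at 0.05. The pipeline was tested on simulated data. Other probe sets were fitted over all probe sets, with adjustment over these. The number of arrays limits the precision.

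The 9 genes, the pathway lists, the marker lists and the motifs were chosen with earlier results of these data known. Named genes were the 9 members, up to 3 called genes with the largest rise and 3 with the largest fall of each list at 24 hours, 7 genes of the pathway whatever their values, and the 3 genes most correlated with each member that spanned at least 1 log2 unit. Promoter sequences are those of RefSeq (GRCh38.p14).

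Alternatives changed the filter, the probe set rule, the scaling, the variance model, the arrays in the fit, the threshold, a term for the spiked hybridisation controls and the replicate block, and left out each array in turn. Replicate numbers were set against each other as a check of pairing: of 18 pairs of groups and numbers, 7 correlated above 0.1 (lowest -0.17, highest 0.42), so the numbers were not taken to pair the arrays.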

Additional observations from a re-analysis of the deposited data

Results flagged for a closer look

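The effect of HFM against GM differed between 24 and 12 hours, by the interaction term of limma over 13130 genes, for 6 of the 9 genes, where 52.8% of all genes had such a difference. The difference, as the log2 change at 24 hours minus that at 12 hours, was 2.50 for PPP1R15A, 2.09 for DDIT3, 1.46 for ATF3 and 1.33 for CEBPB. It was 0.32 for TRIB3 and -0.42 for CEBPG. PPP1R15A and CEBPB were lower in HFM at 12 hours and higher at 24 hours, and DDIT3 and ATF3 were higher at both times. At 12 hours the fall of PPP1R15A was called in its main probe set only, as was the rise of ATF3. The value of CEBPG is that of its main probe set, and the second gave -1.03. HFM 12 hours replicate 1 was above the other 2 arrays of its group for DDIT3 and ATF3. Leaving out each array in turn gave differences of 2.03 to 2.20 for DDIT3 and 1.36 to 1.58 for ATF3.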

How the results depend on the processing

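Of the recomputed log2 changes of the members, 966 kept direction and call, 16 reversed, 35 lost their call and 13 gained one. DDIT3, PPP1R15A and CEBPB kept direction and call at 24 hours under all 23 alternatives (3.15 to 3.39, 2.17 to 2.38 and 0.91 to 1.12). ATF3 did so under 22 (1.21 to 2.28), the lowest with the mean of its probe sets, which also gave 0.17 at 12 hours. The 2-fold minimum given below is not among these 23, and CEBPB, at 1.92-fold, was not called with it. Another alternative dropped probe sets with names ending in _s_at, _x_at or _a_at, taken by name as types that can cross-hybridise. With it 8 members were tested and ATF3 was not. The main probe set of ATF3 ends in _s_at. Its probe set ending in _a_at, which passed the filter and rose by 0.89 at 24 hours, was dropped too. Its remaining probe set did not pass the filter. With a 2-fold minimum the members called were 1 at 12 hours, 3 at 24 hours, 3 for 24 against 12 hours in HFM and 0 in GM, where limma without that minimum called 7, 8, 8 and 7. Over all genes it left 286, 983, 1004 and 561, and 1045 for the difference between times, since a fold was added to the same test.

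Centring turned ATF4 to 0.021 at 24 hours, 0.091 for the difference between times and 0.022 for HFM over time, PPP1R15B to 0.18 at 24 hours and 0.048 for the difference between times, CHAC1 to 0.047 for that difference and CEBPG to 0.19 for HFM over time. Quantile normalisation turned PPP1R15B to 0.13 and 0.021 in the same comparisons and CEBPG to 0.13. The mean of probe sets turned CEBPG to -0.39 at 24 hours. The higher class of the BioB and BioC controls held the GM 12 hours arrays and HFM 12 hours replicate 1. A term for the class, chosen after seeing the data, thus rests on that array against the others of its group. The term turned ATF4 to 0.089 at 12 hours and to 0.12 over time in GM, and ATF3 to 0.20 over time in GM. It also took the calls of CHAC1 (-0.087) and PPP1R15A (-0.15) at 12 hours, which left 5 members called there, and it added ATF4 (-0.25) and CHAC1 (-0.45) to the differences between times and took TRIB3 (0.12). In the planned split, the spiked controls set 1 array apart, GM 24 hours replicate 2, so its term equals leaving that array out. The 23 alternatives count this fit under both names. Leaving out each array moved PPP1R15B at 24 hours between -0.035 and 0.040. The cause of these changes was not tested, and the small changes of ATF4, PPP1R15B and TRIB3 are at the limit of 3 arrays a group.

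With the replicate number as a block, 1 of 45 comparisons of the members changed its call: PPP1R15B at 12 hours (0.15, adjusted p = 0.0265). The numbers were not shown to pair the arrays, and 7 of the 12 arrays correlated best with an array of their own number.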
